A study of Homo sapiens with 10 samples.

Results

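The cytosolic ribosomal protein genes encode the protein part of the ribosome that translates nuclear mRNAs. Members were chosen by symbol: RPL or RPS followed by a number and an optional A, together with RPS4X, RPSA, RPLP0, RPLP1 and RPLP2. This rule took 77 of the 28281 gene symbols in the count tables, 46 of the large subunit (3 of them in its P stalk) and 31 of the small subunit. Pseudogenes, ribosomal protein kinases and genes named as paralogs were not taken. Each of the 77 passed the filter on low counts in every comparison.

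The libraries are poly(A) RNA-seq of A549 and H1944, 2 established human lines of lung adenocarcinoma, with APE1 knocked out (KO) or intact (WT). APE1, encoded by APEX1, cuts DNA at sites that have lost a base, a step of base excision repair, and also acts on the redox state of transcription factors. The study's title links it to urea cycle genes and to G-quadruplexes, folded structures of guanine-rich DNA. The groups were A549 KO (3 libraries), A549 WT (3), H1944 KO (2) and H1944 WT (2), with no treatment or time named. The labels do not say how the knockouts were made or whether a line's KO libraries came from separate clones or cultures, and p-values therefore speak only of the spread among the libraries sequenced, part or all of which may be technical. The A549 KO libraries are named here by their column numbers, 16, 65 and 66, which carry no genotype. The assignment to KO rests on the labels, in which the A549 knockout is the one group with no named column.

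A ribosome holds most of its proteins in equal numbers, and cells make most of their mRNAs together. In mammals these mRNAs begin with a 5′ terminal oligopyrimidine (TOP) tract, a C followed by a run of C and T, through which mTOR signalling and the binding protein LARP1 control their translation. Free ribosomal proteins that lack a partner are degraded, or, in the case of RPL5 and RPL11, bind and inhibit MDM2, which raises p53. Inherited loss of a copy of several members causes Diamond-Blackfan anaemia. Tumour cells that grow fast, lung adenocarcinoma among them, make many ribosomes.

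The start sites show the feature that joins the members in sequence. RefSeq promoters (GRCh38.p14) were matched for 62 of the 77 members, and 52 of the 62 (83.9%) held a TOP tract, against 23.6% of all 27305 genes in the promoter table. A tract was counted where a C within 5 bases of the annotated start was followed on the sense strand by at least 4 letters that were each C or T. The share was 27.1% of the 12205 other genes tested in H1944 that had a promoter. The lines below give 30 bases around the start, with the tract in capitals, for matched members that the values below turn on. They are members with the largest rises and falls from WT to KO in H1944 and with the largest falls in A549. RPS9, RPS18 and RPS28, whose levels are described library by library, are also shown. RPL7 and RPL8, also among the largest falls, were not among the matched members.
RPL39 (chrX:119791616-119791645, minus strand): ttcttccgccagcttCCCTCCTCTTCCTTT
RPL36A (chrX:101390996-101391025, plus strand): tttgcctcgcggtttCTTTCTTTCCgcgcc
RPS19 (chr19:41860240-41860269, plus strand): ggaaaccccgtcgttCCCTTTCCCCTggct
RPL38 (chr17:74203663-74203692, plus strand): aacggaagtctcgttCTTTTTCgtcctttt
RPLP0 (chr12:120201097-120201126, minus strand): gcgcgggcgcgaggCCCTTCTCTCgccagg
RPL17 (chr18:49492451-49492480, minus strand): cctctttccctaagcagcctgaggtgagtg
RPS27A (chr2:55232673-55232702, plus strand): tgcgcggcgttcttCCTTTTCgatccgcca
RPS7 (chr2:3575245-3575274, plus strand): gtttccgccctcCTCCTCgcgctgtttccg
RPS3 (chr11:75399503-75399532, plus strand): gcccgcgagccacttCCTTTCCTTTCagcg
RPS9 (chr19:54200843-54200872, plus strand): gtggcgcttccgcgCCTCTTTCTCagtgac
RPS18 (chr6:33272060-33272089, plus strand): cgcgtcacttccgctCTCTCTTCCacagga
RPS28 (chr19:8321481-8321510, plus strand): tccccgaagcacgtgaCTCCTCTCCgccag
The capitals begin at the C nearest to the annotated start that meets the definition, and in some lines, such as those of RPS7, RPS27A and RPL39, the run of C and T also extends upstream of them. In RPL39 it reaches the end of the window. RPL17 had no tract by this definition. A gene with several listed starts was counted if any of them had the pattern.

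Other promoter patterns were searched in the same 300-base windows, 250 bases before to 50 after the start. CCGGAA, the core bound by ETS factors such as GABP, was found on either strand in 35 of 62 members (56.5%), against 20.1% of all genes and 31.9% of the other genes tested in H1944. AAGATGG, part of the YY1 motif, was found on either strand in 12.9%, against 7.11% and 8.83%. The E-box CACGTG, which reads the same on both strands, was in 6.45%, against 8.77% and 12.1%. TATAAA, searched on the sense strand between 40 and 15 bases before the start, was in 3.23%, against 2.92% and 2.39%.

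Because the study concerns G-quadruplexes, the pattern of 4 runs of GGG with 1 to 7 letters between them was also searched on each strand. It was in 6 of 62 member promoters (9.68%), against 27.9% of all genes and 40% of the other genes tested in H1944, and was found in RPLP2, RPS26, RPS28, RPS16, RPS19 and RPL18. The match in RPS19 lies on the strand opposite to the gene and overlaps the start and its TOP tract. Those of RPS19 and RPLP2 are shown with the G runs in capitals (chr19:41860236-41860264, minus strand, and chr11:809805-809827, plus strand, GRCh38.p14).
RPS19: GGGGaaaGGGaacgacGGGGtttcccGGG
RPLP2: GGGGGctGGGaaGGGGGaGGGGG
The 6 members with the pattern had a median log2 fold change of 0.49 in H1944 and -0.18 in A549, and the 56 without it had 0.43 and -0.34. Members with and without a TOP tract had medians of 0.46 and 0.39 in H1944, and both groups had -0.32 in A549. These are descriptions of letters in a window and of medians, with no test.

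Libraries held 18314224 to 30219850 counts. APEX1 was lower in each KO library than in each WT library: 60.1, 62.9 and 108 CPM (counts scaled to library size) in A549 KO 16, 65 and 66, against 167, 254 and 237 CPM in A549 WT, and 87.0 and 87.6 CPM in H1944 KO, against 244 and 243 CPM in H1944 WT. CPM are scaled by TMM within a line, so that levels of the lines are not on one normalization. The 5 epithelial markers summed to 9000.0 to 22134 CPM in A549 KO, 8868 to 22391 CPM in A549 WT, 17494 to 17891 CPM in H1944 KO and 9782 to 9936 CPM in H1944 WT, while markers of lung lineage summed to at most 10.7 CPM. KRT8 and KRT18, keratins of simple epithelia, carried the epithelial sum and were higher in both H1944 KO libraries, while the other 3 markers were lower in both. KRT8 measured 9818 and 9677 CPM in H1944 KO, against 5609 and 5480 CPM in H1944 WT. KRT18 measured 8064 and 7808 CPM in H1944 KO, against 4043 and 4022 CPM in H1944 WT. The cell adhesion genes CDH1 and EPCAM fell in H1944: CDH1 measured 7.82 and 8.21 CPM in H1944 KO, against 211.2 and 210.6 CPM in H1944 WT, and EPCAM 1.13 and 0.771 CPM, against 71.5 and 68.8 CPM (log2 fold changes -4.72 and -6.21, edgeR adjusted p 6.7e-25 and 2.4e-21). KRT19 was low in both, at 0.0352 and 0.101 CPM in H1944 KO, against 1.37 and 1.38 CPM in H1944 WT. In A549, EPCAM measured 75.4, 36.1 and 81.1 CPM in KO 16, 65 and 66, against 15.1, 28.8 and 24.4 CPM in WT. CDH1 measured 91.4, 68.1 and 61.9 CPM in A549 KO, against 63.8, 33.3 and 38.8 CPM in A549 WT. VIM, the mesenchymal intermediate filament vimentin, rose, with 1185 and 1162 CPM in H1944 KO, against 347 and 345 CPM in H1944 WT. The part of these marker differences in the members' H1944 values was not tested. The A549 libraries fell into 2 sets across genotype. KO 65 and WT 1, the smaller set, had counts for the 28S ribosomal RNA gene copy RNA28SN4, and KO 16, KO 66, WT 2 and WT 3, the larger set, had 0. The H1944 libraries also had RNA28SN4 counts, 9291 and 9851 in H1944 KO and 2935 and 4963 in H1944 WT. The share of ribosomal RNA genes was 14.2%, 0.337% and 7.18% in KO 16, KO 65 and KO 66, against 0.284%, 6.45% and 6.46% in WT 1, WT 2 and WT 3.

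In H1944, ribosomal protein mRNAs took a larger part of the counts in both KO libraries. Members held 9.57% and 9.48% of all counts in H1944 KO 1 and KO 2, against 7.68% and 7.91% in H1944 WT 1 and WT 2. The mean was 9.52% ± 0.063 in H1944 KO and 7.80% ± 0.167 in H1944 WT (SD, n = 2 each), and the groups did not overlap. With 2 libraries a group no permutation test of this share can pass the threshold, and none was made. Counts give a gene's part of the RNA, so that a difference in cells and a difference in RNA per cell cannot be told apart. In A549 the share was 5.03%, 5.11% and 7.44% in KO 16, KO 65 and KO 66, against 5.05%, 8.04% and 7.97% in WT 1, WT 2 and WT 3. The A549 groups overlapped, with KO 16, KO 65 and WT 1 low and KO 66, WT 2 and WT 3 high. The A549 mean was 5.86% ± 1.37 in KO and 7.02% ± 1.71 in WT (SD, n = 3 each), a difference of -1.16 percentage points with an exact permutation p of 0.3 (2-sided, smallest possible 0.1).

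**Figure D1:**
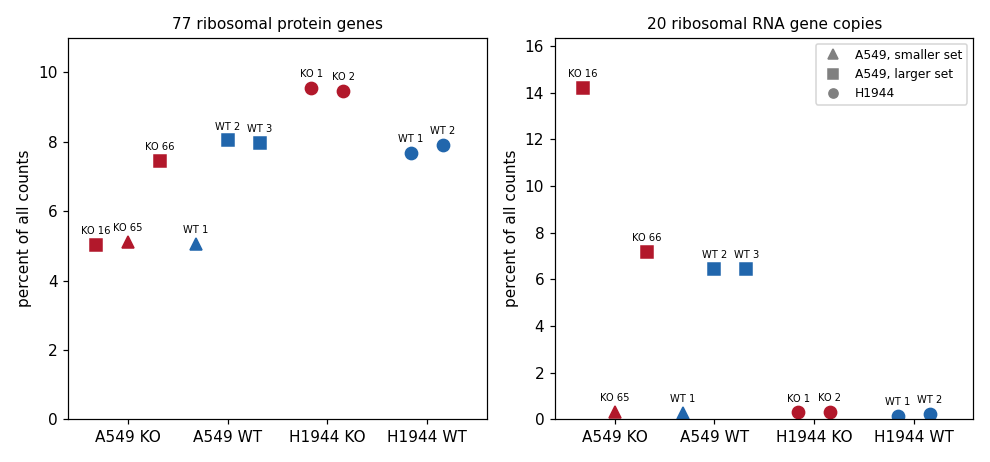
Percent of all counts held by the ribosomal protein genes (left) and by ribosomal RNA gene copies (right) in each library, KO in red and WT in blue, with the A549 sets as triangles and squares. In H1944 the KO libraries lie at 9.57% and 9.48%, above the WT libraries, while in A549 KO 65 and KO 16 lie near WT 1.

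Gene by gene, 71 of the 77 members rose in H1944 KO, 3 fell and 3 did not pass the test (edgeR, adjusted p under 0.05 over all 16626 genes). Of all genes tested in H1944, 33.2% rose and 33.9% fell by the same rule, 67.1% in all, and 69.6% had an unadjusted p under 0.05. The median log2 fold change of the members was 0.41, and that of all genes tested was -0.01. Values were above 0 for 74 members and below 0 for 3, against 49.6% and 50.4% of all genes. For 73 members both KO libraries lay above both WT libraries, for 3 they lay below and for 1 they overlapped, while 41.1% of all genes lay above and 41.4% below. These calls rest on the spread of the 4 H1944 libraries. In a fit of all 10 libraries, which shares the wider spread of A549, 0 members were called. The share of all genes called in that fit is not given here, so the loss of calls is not a result about the members.

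**Figure D2:**
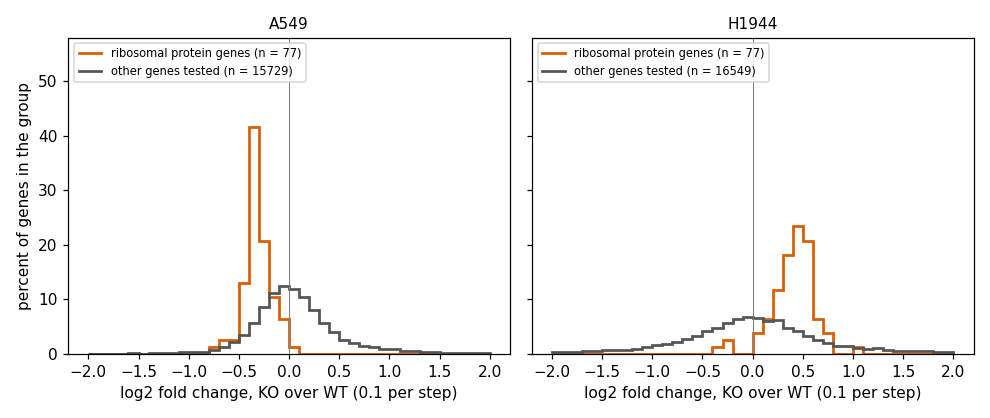
Percent of genes by log2 fold change of KO over WT, in steps of 0.1, for the 77 ribosomal protein genes (orange) and the other genes tested (grey), values beyond 2 in size not drawn. The member median is -0.32 in A549 and 0.41 in H1944, and the other genes centre near 0 in both lines.

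The largest rise in H1944 was that of RPL39, a small protein that lines the exit tunnel of the nascent chain. RPL39 measured 1015 and 987 CPM in H1944 KO, against 473 and 508 CPM in H1944 WT (log2 fold change 1.03, standard error, SE, 0.03, edgeR adjusted p 1.5e-16). The KO libraries lay at about the same level and far above either WT library. RPL36A, a large subunit protein near the exit site of the tRNA, measured 734 and 681 CPM in H1944 KO, against 388 and 426 CPM in H1944 WT (log2 fold change 0.80, SE 0.05, edgeR adjusted p 3.9e-08). RPL36A shares reads with the readthrough gene RPL36A-HNRNPH2 in these tables and its count is uncertain to that extent. RPL38, known from mouse development for its part in the translation of Hox mRNAs, measured 428 and 412 CPM in H1944 KO, against 252 and 269 CPM in H1944 WT (0.69, SE 0.04, edgeR adjusted p 4.6e-13).

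In the small subunit, 30 of 31 members rose and none fell in H1944. RPS19, the member most often mutated in Diamond-Blackfan anaemia, led them among abundant mRNAs with 1719 and 1626 CPM in H1944 KO, against 959.5 and 1011 CPM in H1944 WT (log2 fold change 0.76, SE 0.03, edgeR adjusted p 2.0e-14). RPS18 had a like fold change, 0.76 (SE 0.11, edgeR adjusted p 6.6e-06), but at a level of 29.1 and 27.2 CPM in H1944 KO, against 14.3 and 18.9 CPM in H1944 WT. RPS3, which lies at the mRNA entry channel, measured 1975 and 1961 CPM in H1944 KO, against 1412 and 1459.5 CPM in H1944 WT (0.46, SE 0.03, edgeR adjusted p 7.4e-12). RPS6, the substrate of S6 kinase, had 0.33 and RPSA, also known as the laminin receptor precursor, had 0.20, both past the threshold. RPS27A, which is made as a fusion with ubiquitin, measured 1029 and 1028 CPM in H1944 KO, against 689 and 778 CPM in H1944 WT (0.49, SE 0.05, edgeR adjusted p 1.6e-05). RPS27 was the smallest call, at 0.07 with an edgeR adjusted p of 0.04998, and it was not called in 6 of 13 settings, among them relative log expression size factors, DESeq2 and the fits without KO 1, KO 2 or WT 1.

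Of the 19 members on the list of Diamond-Blackfan anaemia genes, 18 rose in H1944, none fell, and the median was 0.48. That count is near that of the members as a whole, of which 71 of 77 rose with a median of 0.41, while 33.2% of all genes rose. RPL5 and RPL11, which bind MDM2 together with 5S ribosomal RNA, rose by different amounts. RPL11 measured 594 and 565 CPM in H1944 KO, against 396 and 413 CPM in H1944 WT (0.52, SE 0.03). RPL5 measured 1246 and 1254 CPM in H1944 KO, against 1090.3 and 1145 CPM in H1944 WT (0.16, SE 0.03, edgeR adjusted p 9.3e-05).

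The P stalk, which recruits the translation factors, did not move as one in H1944. RPLP0, the scaffold of the stalk and a common normalizer in quantitative PCR, fell: it measured 2222 and 2204 CPM in H1944 KO, against 2849 and 2801 CPM in H1944 WT (log2 fold change -0.35, SE 0.03, edgeR adjusted p 2.3e-10). Both KO libraries lay below both WT libraries. Its partners rose: RPLP1 by 0.38 and RPLP2 by 0.54 on the log2 scale, with edgeR adjusted p of 1.4e-10 and 1.8e-12. RPLP1 measured 1755 and 1697 CPM in H1944 KO, against 1322 in each H1944 WT library.

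**Figure D3:**
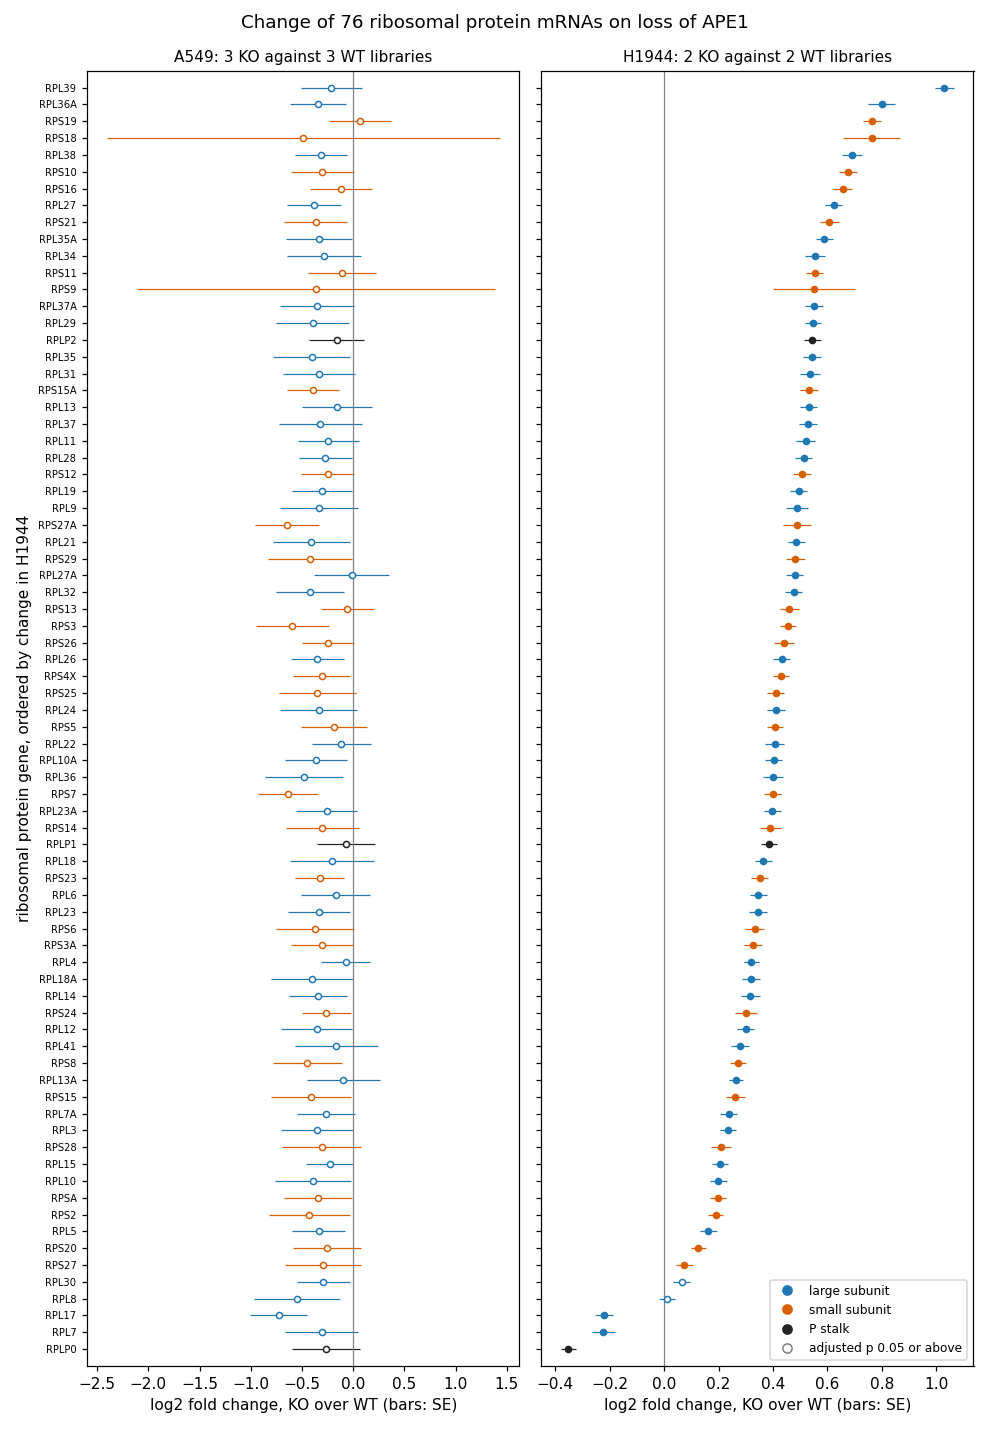
Log2 fold change of KO over WT with its standard error for 76 of the 77 members in A549 (left) and H1944 (right), ordered by the H1944 value, filled where the edgeR adjusted p was under 0.05. In H1944 the values run from -0.35 for RPLP0 to 1.03 for RPL39, and in A549 no symbol is filled.

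The other falls in H1944 were RPL7 and RPL17, both of the large subunit. RPL7 measured 2569 and 2638 CPM in H1944 KO, against 2887 and 3192 CPM in H1944 WT (log2 fold change -0.22, SE 0.04, edgeR adjusted p 0.000502). RPL17, which borders the exit tunnel, measured 718 and 695 CPM in H1944 KO, against 804 and 842 CPM in H1944 WT (-0.22, SE 0.03, edgeR adjusted p 4.1e-06). RPL17 shares reads with the readthrough gene RPL17-C18orf32. RPL8 and RPL30 did not pass the test, at 0.01 and 0.06.

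Several of these members lie among other genes with low values in H1944. Chromosomes 8 and 18 had the lowest medians of all chromosomes among other genes, -0.58 and -0.55, and 5 members lie on them: RPL7, RPL8, RPL30 and RPS20 on chromosome 8 and RPL17 on chromosome 18. Their median log2 fold change was 0.01, against 0.43 for the other 72 members. Other genes within 5 Mb had medians of -0.87 around RPL7, -0.75 around RPL17, -0.57 around RPL30, -0.46 around RPS20 and -0.27 around RPL8. RPLP0, on chromosome 12, also had low neighbours, with a median of -0.52. Low neighbours were not always beside a low member. RPS3A, RPL34 and RPL9 on chromosome 4 and RPL37 on chromosome 5 had neighbourhood medians of -0.43, -0.42, -0.33 and -0.39, lower than that of RPL8, and rose by 0.33, 0.56, 0.49 and 0.53 on the log2 scale. Over the 77 members the Spearman correlation with the neighbourhood median was 0.28 in H1944 and 0.70 in A549, as a description over genes that share libraries. What the neighbourhood contributed to a member's change was not tested.

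**Figure D4:**
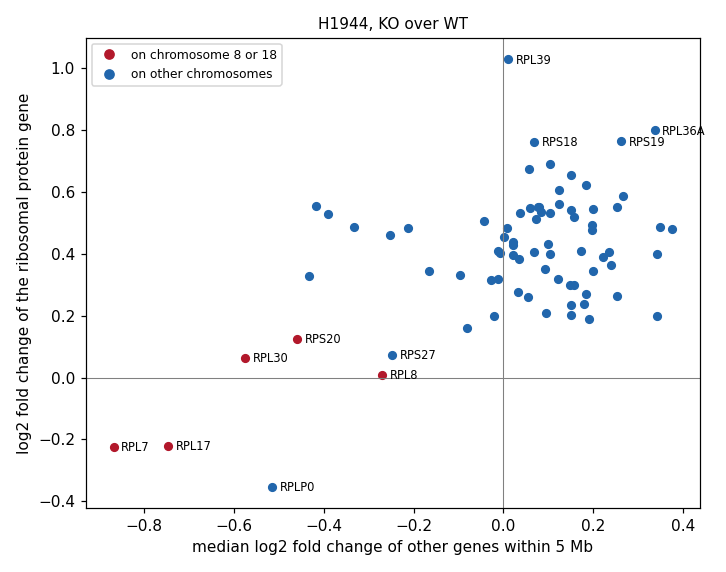
Log2 fold change of each member in H1944, KO over WT, against the median of the other genes within 5 Mb of it, with members on chromosomes 8 and 18 in red. RPL7, RPL17 and RPLP0, the members below 0, have neighbourhood medians of -0.87, -0.75 and -0.52.

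The size of the H1944 change also followed coding length. The Spearman correlation of log2 fold change with coding length was -0.44 over the 77 members in H1944, against -0.11 over 13759 other genes. The 9 members with up to 300 coding bases had a median of 0.53 and the 20 with 600 to 1000 had 0.27, while other genes of those lengths had medians of 0.10 and 0.11. In A549 the correlation was -0.09 over the members and 0.21 over 13220 other genes. These points share libraries and library preparation, and the part of fragment length or size selection was not tested.

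In A549 no member passed the test (0 of 77), where 1 of 15806 genes did (0.00633%). APEX1 itself did not pass in A549 (log2 fold change -1.51, SE 0.30, edgeR adjusted p 0.521). It passed in H1944 (-1.48, SE 0.04, edgeR adjusted p 6.4e-19). That no member was called in A549 therefore does not show that the members were unchanged. At an unadjusted p under 0.05 there was 1 member, RPL17, against 5.66% of all genes. DESeq2 and limma-voom also called 0 members, and the share of all genes called in those fits is not given here. The members' median log2 fold change was -0.32 and that of all genes 0.02, and 76 of 77 values were below 0, against 47.8% of all genes. For no member did the KO and WT libraries separate, while every KO library lay below every WT library in 4.6% of all genes and above in 6.11%. The median was -0.16, -0.17 and -0.19 without KO 65, WT 2 or WT 3, and -0.56 without KO 66 or without WT 1.

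RPL17 had the lowest value in A549, with 405, 359 and 546 CPM in KO 16, 65 and 66, against 497, 852 and 824 CPM in WT 1, 2 and 3 (log2 fold change -0.73, SE 0.28, edgeR adjusted p 0.837). KO 66 lay above WT 1, so the groups overlapped. RPS27A measured 576, 489 and 747 CPM in A549 KO, against 584, 1134 and 1121 CPM in A549 WT (-0.65, SE 0.31, edgeR adjusted p 0.939). RPS7 had -0.64, RPS3 -0.59 and RPL8 -0.55, none past the test. RPS19 was the member above 0, at 0.06 with an SE of 0.30, with 1276, 1435 and 2038 CPM in A549 KO, against 1033, 1769.8 and 1738 CPM in A549 WT. Its value was -0.18 without KO 66 and -0.15 without WT 1.

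Members differed more between the A549 sets than between KO and WT. Between the smaller and the larger set the median difference of the members was -0.69 on the log2 scale, against 0.04 for all genes, and 76 of 77 were lower in the smaller set. Within sets, KO 65 against WT 1 had a member median of -0.06, with 44 of 77 below 0. KO 16 against the mean log2 value of WT 2 and WT 3 had -0.64, with 77 of 77 below 0. KO 66 against the same mean had -0.19, with 64 of 77 below 0. All genes had medians of -0.03, 0.05 and 0.01 in these comparisons. In 41 of 77 members all 3 KO libraries lay below the WT value of their set, WT 1 or the mean of WT 2 and WT 3. In 0 members all 3 lay above it. Of all genes, 16.8% lay below and 17.2% above in all 3. KO 16 also had the largest share of ribosomal RNA, 14.2%, and the part of this in its values was not tested. RPL17 gave -0.47, -1.05 and -0.62 for KO 65, KO 16 and KO 66, and RPS7 gave -0.53, -0.83 and -0.53.

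RPS9 and RPS18, both of the small subunit, had levels that depended on the library far more than on genotype. RPS9 measured 679, 9.90 and 1043 CPM in A549 KO 16, 65 and 66, against 12.7, 1130.2 and 1089.5 CPM in A549 WT 1, 2 and 3, and 25.3 and 28.6 CPM in H1944 KO, against 21.4 and 15.3 CPM in H1944 WT. RPS18 measured 585, 3.77 and 845 CPM in A549 KO, against 6.02, 1009 and 994 CPM in A549 WT. The smaller set and all H1944 libraries were below 30 CPM in both genes, and the larger set was above 500 CPM. The levels of both genes in the low libraries, and their changes in A549 and in H1944, are therefore uncertain. Both are among the 71 members that rose in H1944.

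RPS18 lies in the major histocompatibility region of chromosome 6 and RPS9 in the leukocyte receptor region of chromosome 19, for which hg38 also carries alternate sequences. Genes beside them had the same pattern: TSEN34, next to RPS9, measured 70.3, 0.444 and 109 CPM in A549 KO 16, 65 and 66, against 0.631, 103 and 102 CPM in A549 WT, and SLC39A7, next to RPS18, measured 115, 0.488 and 147 CPM, against 0.194, 147 and 145 CPM. Whether reads were aligned to alternate sequences is not given in the sources used here, and the cause was not tested. RPS28 went the other way, at 30.4, 94.1 and 57.1 CPM in A549 KO 16, 65 and 66, against 82.3, 69.2 and 73.3 CPM in A549 WT. Without RPS9 and RPS18 the member medians were -0.32 in A549 and 0.41 in H1944.

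**Figure D5:**
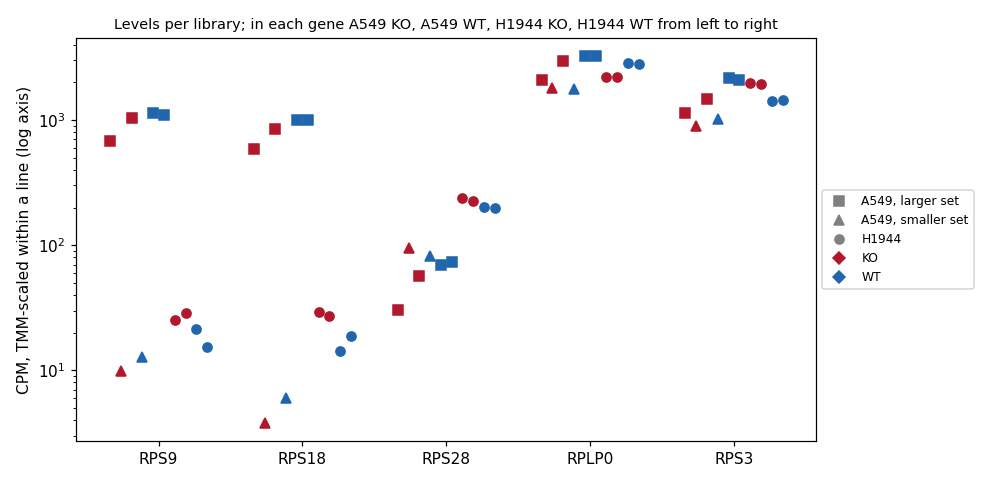
CPM per library on a log axis for RPS9, RPS18 and RPS28, with RPLP0 and RPS3 for comparison, KO in red and WT in blue. RPS9 lies at 9.90 CPM in A549 KO 65 and 12.7 CPM in WT 1, near the H1944 libraries, and above 500 CPM in the other A549 libraries.

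Levels per kilobase of coding sequence differed widely among members. The group medians were 1291 CPM per kilobase in A549 KO, 1647 in A549 WT, 2233 in H1944 KO and 1731 in H1944 WT. RPL41, the shortest member with 75 coding bases, was the highest in every group, at 15685 CPM per kilobase in A549 KO, 17590.3 in A549 WT, 27069 in H1944 KO and 22338 in H1944 WT. For so short a coding sequence the value per kilobase is uncertain, since reads also fall on untranslated bases. RPL13A came next, with 4046, 4330.2, 7572 and 6306 CPM per kilobase in A549 KO, A549 WT, H1944 KO and H1944 WT, in H1944 KO behind RPL37 at 7576.

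The difference between the lines (A549 change minus H1944 change) was tested in a fit of all 10 libraries. The H1944 libraries had RNA28SN4 counts, as in A549 only the smaller set did. The part of this in the line difference was not tested. No member passed (0 of 77, against 6.95% of all 17677 genes, 4.1% higher and 2.85% lower), 10 had an unadjusted p under 0.05, against 21.9% of all genes, and DESeq2 called 3, all lower. The median of the members was -0.73, that of all genes 0.00, and 76 of 77 were below 0. RPL39 had -1.28 (SE 0.43, edgeR adjusted p 0.12) and RPL36A had -1.17 (SE 0.39, edgeR adjusted p 0.114). RPLP0 was the one member above 0, at 0.05 with an SE of 0.45. The count was 15, all lower, with the A549 set as a term, and 23, all lower, without A549 WT 1. The counts of 3, 15 and 23 are not set against the share of all genes called in the same fits. They are therefore not a result about the members.

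Other gene lists around the ribosome were counted in H1944, where 33.2% of all genes rose, 33.9% fell and the median was -0.01. No list's share was tested against that of all genes, and those of snoRNA host genes lay near it. Of 24 other TOP mRNAs, 13 rose and 6 fell, with a median of 0.21 and values from -0.41 to 1.76. FAU, which encodes a ribosomal protein fused to a ubiquitin-like protein and is not a member by its symbol, rose by 0.36 on the log2 scale. The poly(A) binding protein PABPC1 fell by 0.41 and the initiation factor EIF4B by 0.37. Of 38 genes of nucleolar ribosome assembly, 24 rose and 5 fell (median 0.23, values from -0.19 to 1.00). Among them NOP56 had 0.26, FBL 0.22 and NOP58 -0.18. Of 15 genes of RNA polymerase I and its factors, 6 rose and 3 fell (median 0.06), and of 78 mitochondrial ribosomal protein genes, 35 rose and 15 fell (median 0.11). Of 11 snoRNA host genes 4 rose and 4 fell, and of 10 genes of ribosome quality control 3 rose and 5 fell.

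Among 21 regulators of ribosomal protein supply, 8 rose and 10 fell in H1944. MYC, which activates ribosomal protein genes, rose by 0.45 and MDM2 by 1.12, while the translation repressors EIF4EBP1 and EIF4EBP2 had -0.74 and -0.61, LARP1 had -0.16 and MTOR -0.27. In A549 no gene of any of these lists passed the test, and the medians were -0.21 for TOP mRNAs, -0.28 for mitochondrial ribosomal proteins and -0.16 for assembly genes.

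Paralogs that the rule leaves out included larger changes. RPS27L, a p53 target related to RPS27, measured 256 and 259 CPM in H1944 KO, against 84.0 and 95.6 CPM in H1944 WT (log2 fold change 1.52, SE 0.05, edgeR adjusted p 1.1e-14). In A549 it measured 169.6, 219 and 211 CPM in KO 16, 65 and 66, against 102, 139 and 136 CPM in WT (0.67, SE 0.20, edgeR adjusted p 0.715), with every KO library above every WT library. RPL22L1, a paralog of RPL22, measured 53.7 and 57.9 CPM in H1944 KO, against 32.1 and 38.4 CPM in H1944 WT (0.67, SE 0.07). In A549 it measured 56.4, 37.6 and 61.4 CPM in KO, against 70.4, 118 and 117 CPM in WT (-0.97, SE 0.29, edgeR adjusted p 0.715). Of the 8 paralogs, 5 rose and none fell in H1944.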

How the data were processed

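Per the labels' protocols, RNA was extracted with TRIzol, poly(A) RNA was selected and libraries were read as 150 bp paired ends. Per the submitters' processing notes the tools were Trim Galore 0.5.0, HISAT2 2.1.0, featureCounts 1.6.4 and DESeq2, with the build hg38. Strand, annotation and the handling of reads with several alignments are not given in the sources used here. The 5 RNA18S gene copies have identical counts in every library, so reads can be counted at several features, and near-identical pseudogenes and overlapping genes make counts uncertain. The 32 pseudogene symbols of members held 0.182% to 0.389% of the counts of members and pseudogenes together. The values the authors deposited are raw counts per symbol, not normalized, and 0 per-sample columns were left out.

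Genes were kept by filterByExpr (minimum count 10), scaled by TMM and compared in edgeR 4.0.16 (R 4.3.3) by its quasi-likelihood test with robust settings, per line and, for the difference between lines, over all 10 libraries. P-values were adjusted by Benjamini-Hochberg over all genes tested, with a threshold of 0.05. SE was derived from the fold change on the log2 scale and the F statistic, as their size divided by the root of F. Within-set values use log2(CPM + 0.5), with the mean of WT 2 and WT 3 as the WT value of the larger set. Alternatives used limma 3.58.1 and DESeq2 1.42.0. Coding lengths and positions come from GENCODE (hg38), promoters from RefSeq (GRCh38.p14). The fits were run on simulated counts drawn independently for each gene and library, without the A549 sets. How the fits behave with such sets was therefore not tested. Values of some single genes are not reported here. Members and gene lists were chosen with earlier results of these data known, lists are described by counts and medians with no set test, and single genes outside the naming rule (TSEN34, SLC39A7 and those of the lists) were named after their values were seen. No pair of libraries within a group agreed within sampling noise; A549 WT 2 and WT 3 came nearest, at 1.90 chi-square units per gene.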

Additional observations from a re-analysis of the deposited data

Results flagged for a closer look

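For 4 genes of the lists around the ribosome, none of them a member, the change on loss of APE1 differed between the lines. This was the test of the difference itself (A549 change minus H1944 change, edgeR, adjusted over all genes). They were 1 of 24 other TOP mRNAs, 1 of 8 paralogs and 2 of 21 regulators tested. No gene of the other lists passed, while 6.95% of all 17677 genes did. The 4 are named as single genes, and their number is not a result about the lists. VIM, a TOP mRNA that encodes vimentin, gave -2.26 (adjusted p 0.00155), with 674, 630.2 and 691 CPM in A549 KO 16, 65 and 66, against 746, 1004 and 996 CPM in A549 WT, and 1185 and 1162 CPM in H1944 KO, against 347 and 345 CPM in H1944 WT. RPL22L1 gave -1.67 (adjusted p 0.0401). CDKN1A, the cell cycle inhibitor p21, gave -1.53 (adjusted p 0.0452), with 171, 332 and 240.4 CPM in A549 KO, against 84.9, 105 and 101 CPM in A549 WT, and 730.2 and 719 CPM in H1944 KO, against 103 and 97.0 CPM in H1944 WT. MYC gave -0.99 (adjusted p 0.0103), with 122, 127 and 122 CPM in A549 KO, against 179, 178 and 174 CPM in A549 WT, and 247 and 242 CPM in H1944 KO, against 179.7 and 179 CPM in H1944 WT. VIM, MYC and RPL22L1 had A549 log2 fold changes below 0, none past the test, and H1944 values above 0, while CDKN1A had values above 0 in both lines.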

How the results depend on the processing

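Of the values that answer a comparison, 102 recomputed under another setting were labelled the same and 7 moved. A median or share was labelled the same if its sign held and it moved by less than the SD between libraries. Counts of calls were allowed to move within a fixed ratio. For the A549 median that SD was 0.34 on the log2 scale, larger in size than the median of -0.32. The label therefore does not show that sizes in A549 were stable. In H1944 the 74 calls became 0 in the fit of all 10 libraries and ran from 74 to 76 with a library left out. The H1944 median was 0.44 with upper-quartile scaling and 0.39 to 0.44 with a library left out. In A549 the 0 calls became 67 (62 lower, 5 higher) in the larger set without KO 16, an alternative added after seeing the data, in which KO 66 alone stands for KO and is assumed to vary like WT 2 and WT 3, the most alike libraries. That fit called 6532 of 16252 genes. The A549 median ran from -0.56 to -0.16 and the A549 share difference from -2.14 to -0.65 percentage points with a library left out. For the difference between lines, DESeq2 called 3 members, the set as a term 15, and leaving out a library 0 to 23. Apart from the larger set without KO 16, the counts of member calls in this section are not set against the share of all genes called in the same fits. Signs turned in A549 for RPLP1 (-0.29 to 0.051), RPS18 (-1.24 to 0.092), RPS9 (-1.17 to 0.21) and RPS19 (-0.18 to 0.20) with a library left out, for RPS19 in the larger set alone (-0.13) and for RPLP2 in the larger set without KO 16 (0.023), none of them called in the fit reported, and for RPLP0 in the difference between lines (-0.20 to 0.20). The cause was not tested. For H1944 the replicate numbers did not pair the libraries (correlation of deviations 0.02), and with the replicate number as a block 73 members were called, RPS9 being lost (adjusted p 0.0548). No paired analysis was possible in A549 because the KO columns carry no replicate number. The alternative without members on alternate haplotype sequences was not run, since the annotation used here covers the primary assembly, and leaving out RPS9 and RPS18 was added in its place. Levels of 3.77 to 29.1 CPM limit RPS9 and RPS18 in the low libraries.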
